A study of Homo sapiens with 6 samples.

Results

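The ephrins, Eph receptors, semaphorins and plexins are 4 families of cell-surface and secreted guidance proteins, and 51 of the 58395 genes in the deposited table belong to them. Members were the protein-coding genes whose symbol starts with EFNA, EFNB, EPHA, EPHB, SEMA or PLXN: 8 ephrin, 14 Eph receptor, 20 semaphorin and 9 plexin genes. Their RNA was measured by sequencing in 786-O cells, a human clear cell renal carcinoma line without functional VHL. 3 libraries came from control cells (sgControl), and 3 from cells labelled sgPLOD2 and as a knockout of PLOD2, which encodes a collagen lysyl hydroxylase; sg stands for a single guide RNA. All 6 libraries came from the same line in the same medium, and no other treatment, time or allele is labelled. The labels do not say whether sgPLOD2 cells were a pool or 1 clone, and do not tie the replicates to separate cultures. The p-values thus rest on differences among 3 libraries per group that may be technical. In sgControl replicate 1, mitochondrial genes made up 12.9% of FPKM, against 6.01% to 7.5% in the other 5 libraries. This library stands apart for EFNB2, SEMA4F, EFNA5 and MICAL2, which are given with and without it, and the part of the mitochondrial share in these values was not tested.

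Ephrins are ligands held on the membrane, by a lipid anchor in the A class and by a transmembrane segment in the B class, and they bind Eph receptor tyrosine kinases on neighbouring cells. As a rule A-class ephrins bind EphA and B-class ephrins bind EphB receptors, with signals running into both cells, commonly as repulsion or sorting. Semaphorins are secreted (class 3) or membrane-bound (classes 4 to 7) ligands whose main receptors are the plexins, which act on small GTPases and through them on the cytoskeleton. Class 3 semaphorins mostly need neuropilins as co-receptors.

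Levels are given in FPKM, a count of fragments scaled to gene length and to the size of the library. A gene was tested where its mean over the 6 libraries was at least 1 FPKM, and it was called where limma's Benjamini-Hochberg adjusted p was under 0.05. Fold changes are sgPLOD2 minus sgControl on log2(FPKM + 1), which understates the change of weakly expressed genes, so ratios of mean FPKM are given for the members with the largest changes.

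The B-class ephrins EFNB1 and EFNB2, the receptors EPHB1 and EPHB2, both class 5 semaphorins, SEMA3F, SEMA4F and SEMA7A rose, while EPHA2, the A-class ephrin EFNA4, 3 plexins and 3 other semaphorins fell. The calls of EFNB2, SEMA4F, EPHA2 and EFNA4 were lost under some alternative settings, which are given with each gene. Of the 51 members, 24 were tested, 9 were called higher, 8 lower and 7 were not called. Over all 10469 genes tested, 29.5% were called higher and 23.5% lower, 52.9% in all, so the number of called members, 17 of 24, stands against a background in which most genes differed. A change of at least 1 on the log2 scale was called for 6 members on the higher and 4 on the lower side, against 5.03% and 3.91% of all tested genes (8.94% in both directions). The median fold change of the 24 members was -0.05 and that of all tested genes 0.06. Since genes were filtered on their mean, a gene expressed in 1 group alone entered the test through that group. Among the members EPHB1, SEMA3B, SEMA6A and PLXNB3 averaged under 1 FPKM in 1 group and passed through the other. The same holds for PTK7, ARHGEF12, NTN1 and ROBO1, whose tests are given further below. The plot of fold changes by family shows the tested members side by side.

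**Figure D1:**
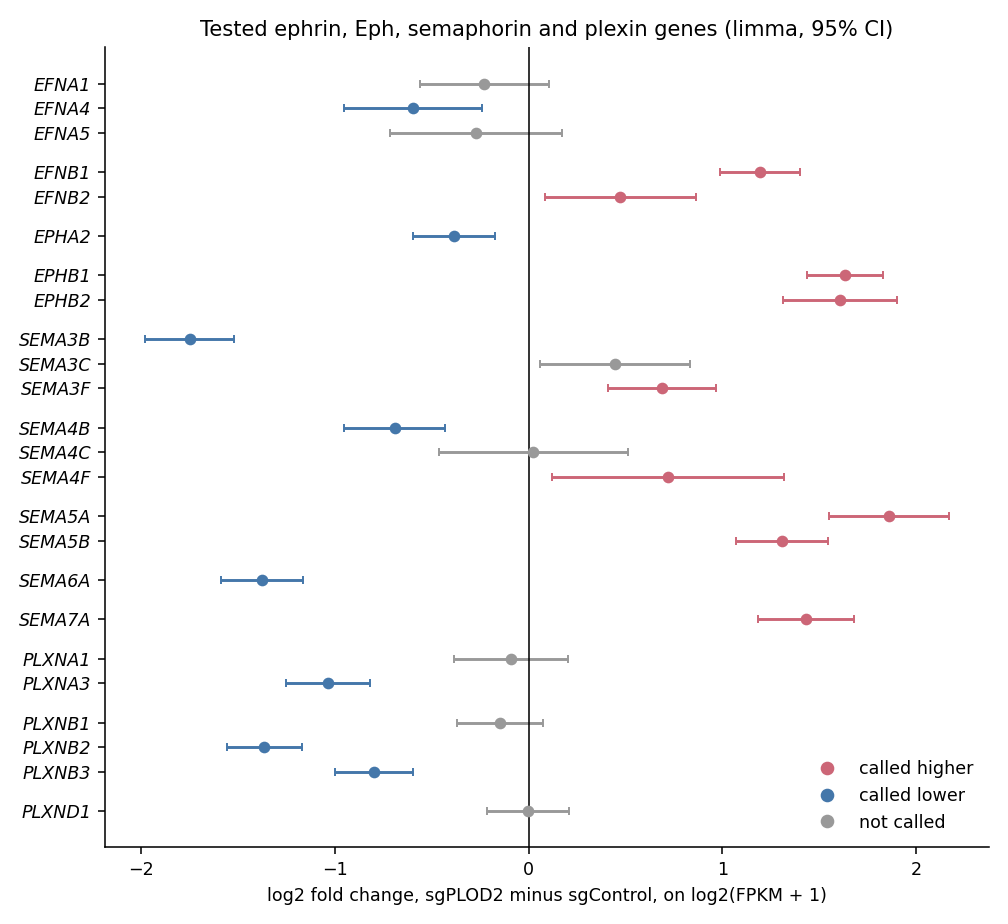
Log2 fold change (sgPLOD2 minus sgControl on log2(FPKM + 1), horizontal axis) of the 24 tested members, ordered by family. Points are limma estimates and bars their 95% confidence intervals, coloured by call. EPHB1, EPHB2, EFNB1 and both SEMA5 genes are among those to the right of 0. All tested plexins lie to its left, with intervals that cross 0 for PLXNA1, PLXNB1 and PLXND1.

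Both tested B-class ephrins, which bind EphB receptors, were higher in sgPLOD2. EFNB1 had 2.80, 3.15 and 2.87 FPKM in the control libraries, compared with 7.60, 7.96 and 8.50 FPKM in sgPLOD2. The groups did not overlap, and the mean was 2.73-fold higher. EFNB1 had a log2 fold change of 1.20 ± 0.09 (SE) and a limma adjusted p of 7.82e-05. In such bulk libraries, a change in the number of cells with a transcript and a change in its level per cell cannot be told apart. EFNB2, better known as the ligand of EPHB4 in blood vessels, had 3.85, 6.53 and 5.43 FPKM with the control guide, and the sgPLOD2 libraries had 7.00, 8.31 and 7.45 FPKM. All sgPLOD2 values of EFNB2 were above all control values, but sgControl replicate 1 was well below the other two. Its log2 fold change of 0.47 ± 0.17 (SE) had an adjusted p of 0.0456, which was over 0.05 in 9 of 18 alternatives (0.0572 to 0.204). Without sgControl replicate 1 the log2 fold change of EFNB2 was 0.30, and the gene was not called (limma adjusted p = 0.0572). EFNB3, the remaining B-class gene, stayed under 0.05 FPKM in every library.

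The A-class ephrins pointed the other way or were not called. EFNA4 had 7.43, 6.10 and 5.76 FPKM in sgControl libraries against 3.02, 4.21 and 4.59 FPKM in sgPLOD2, with no overlap. Its log2 fold change was -0.60 ± 0.15 (SE), with an adjusted p of 0.0141. EFNA4 was not called after correction for GC content and length (-0.24, adjusted p = 0.236). EFNA1, an ephrin with EPHA2 among its receptors, had 5.73 ± 0.93 and 4.74 ± 0.74 FPKM (SD, n = 3 each; 95% interval of the log2 difference -0.56 to 0.11). EFNA5 had 5.11 FPKM in sgControl replicate 1 and 2.63 to 2.90 FPKM in the other 5 libraries, and was not called (adjusted p = 0.260). Without sgControl replicate 1 the log2 fold change of EFNA5 was -0.04.

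EPHA2, the leading Eph receptor of these cells and a kinase often abundant in carcinomas, was moderately lower. It had 95.5, 111 and 108 FPKM in the control libraries, compared with 77.3, 78.4 and 84.4 FPKM in sgPLOD2, and remained the highest of all 51 members in both groups. The groups did not overlap. The log2 fold change was -0.38 ± 0.09 (SE), with an adjusted p of 0.0100. The call was lost under TPM (adjusted p = 0.0941), with quantile normalization (0.0694) and after correction for GC content and length (0.0881). EPHA2 made up 99.4% of summed EPHA FPKM in sgControl and 99.3% in sgPLOD2. The next EPHA gene, EPHA4, had 0.403 ± 0.109 and 0.482 ± 0.079 FPKM (SD, n = 3 each).

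The tested EphB receptors rose from a low level. EPHB1 had 0.340, 0.509 and 0.432 FPKM with the control guide, and the sgPLOD2 libraries had 3.41, 3.52 and 3.33 FPKM, an 8.0-fold higher mean. Its log2 fold change was 1.63 ± 0.08 (SE; adjusted p = 1.31e-05), and with a pseudocount of 0.1 it was 2.75. EPHB2 had 2.26, 3.28 and 3.20 FPKM in sgControl libraries against 10.6, 10.5 and 11.4 FPKM in sgPLOD2. The mean of EPHB2 was 3.72-fold higher, with a log2 fold change of 1.61 ± 0.12 (SE) and an adjusted p of 9.99e-05. Neither receptor overlapped between groups. EPHB4, below the filter on average, had 0.155, 0.0904 and 0.0388 FPKM in the control libraries, compared with 1.11, 0.978 and 1.15 FPKM in sgPLOD2. The authors' deposited table gave EPHB4 a log2 fold change of 3.40 with an adjusted p of 1.01e-17. On the opposite strand EPHB4 overlaps SLC12A9, which was lower in sgPLOD2 (6.18 against 4.0 FPKM). The strand setting of the counting is not given in the sources used here, so reads in that overlap cannot be assigned to either gene. EPHB3 and EPHB6 stayed under 0.03 FPKM.

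Summed over each class, EPHB FPKM went from 3.45 ± 0.59 to 15.3 ± 0.49 and EPHA FPKM from 106 ± 8.43 to 80.6 ± 3.78 (SD, n = 3 each). EphB genes therefore held 2.81% to 3.36% of all Eph receptor FPKM in the sgControl libraries and 15.8% to 16.3% in the sgPLOD2 libraries. Among ligands the B class went from 8.21 ± 1.52 to 15.6 ± 0.87 FPKM and the A class from 16.5 ± 3.12 to 12.2 ± 1.47 FPKM. B-class ephrins were 24.9%, 38.6% and 37.1% of ephrin FPKM in sgControl and 58.1%, 56.6% and 54.3% in sgPLOD2. Both shares lay apart between the groups, and for ephrins the lowest value was that of sgControl replicate 1. These sums are descriptions of chosen genes and were not tested.

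EPHB1, EPHB2 and their ligand gene EFNB1 rose together, so the 250 bases upstream of their RefSeq starts are shown (GRCh38.p14), with SEMA3B, the member with the largest fall on log2(FPKM + 1), for contrast. Each is written 5′ to 3′ on the gene's strand. Capitals mark the core letters of a hypoxia response element, ACGTG or GCGTG on either strand, which were searched because HIF1A, a gene 786-O cells are known for not expressing as protein, differed between the groups (0.420 ± 0.115 and 37.7 ± 1.84 FPKM, SD, n = 3 each). EPHB1 is taken at chr3:134795010-134795259, EPHB2 at chr1:22710589-22710838, EFNB1 at chrX:68828771-68829020 and SEMA3B at chr3:50267402-50267651, all on the plus strand. The EPHB1 window lies inside the deposited gene span, which starts at 134597801, and SEMA3B has 5 RefSeq starts, of which 1 is shown.
EPHB1: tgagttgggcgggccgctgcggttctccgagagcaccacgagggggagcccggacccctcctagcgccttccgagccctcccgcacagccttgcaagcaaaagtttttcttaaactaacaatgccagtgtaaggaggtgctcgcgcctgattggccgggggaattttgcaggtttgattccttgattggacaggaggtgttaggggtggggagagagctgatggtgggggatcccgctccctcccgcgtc
EPHB2: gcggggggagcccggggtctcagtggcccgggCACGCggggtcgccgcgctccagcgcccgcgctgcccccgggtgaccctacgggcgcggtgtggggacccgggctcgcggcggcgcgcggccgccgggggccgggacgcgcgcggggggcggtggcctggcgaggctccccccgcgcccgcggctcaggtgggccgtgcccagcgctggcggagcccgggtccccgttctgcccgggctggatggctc
EFNB1: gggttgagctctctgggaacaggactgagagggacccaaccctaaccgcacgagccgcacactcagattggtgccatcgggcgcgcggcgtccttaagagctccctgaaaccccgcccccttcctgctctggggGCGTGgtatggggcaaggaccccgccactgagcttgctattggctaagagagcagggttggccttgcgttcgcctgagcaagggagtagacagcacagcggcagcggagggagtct
SEMA3B: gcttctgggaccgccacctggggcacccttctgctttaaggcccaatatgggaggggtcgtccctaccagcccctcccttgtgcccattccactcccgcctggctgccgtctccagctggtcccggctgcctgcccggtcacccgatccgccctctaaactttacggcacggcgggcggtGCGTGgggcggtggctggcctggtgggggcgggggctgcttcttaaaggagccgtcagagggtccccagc
EPHB1 had no match in this window and the other three had 1 each. Among called members with such a window, 3 of 9 higher and 2 of 7 lower genes held a match, as did 3 of 7 members not called and 43.2% of 35114 windows of all RefSeq starts. GC boxes (GGGCGG, either strand) were found in 8 of 9 higher, 7 of 7 lower and 5 of 7 uncalled members and in 42.6% of all windows. Those windows cover all RefSeq starts, of genes expressed here or not, so both shares are no matched background for the tested members. SEMA6A had no entry. A match is only a run of letters and was not tested as a site.

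**Figure D2:**
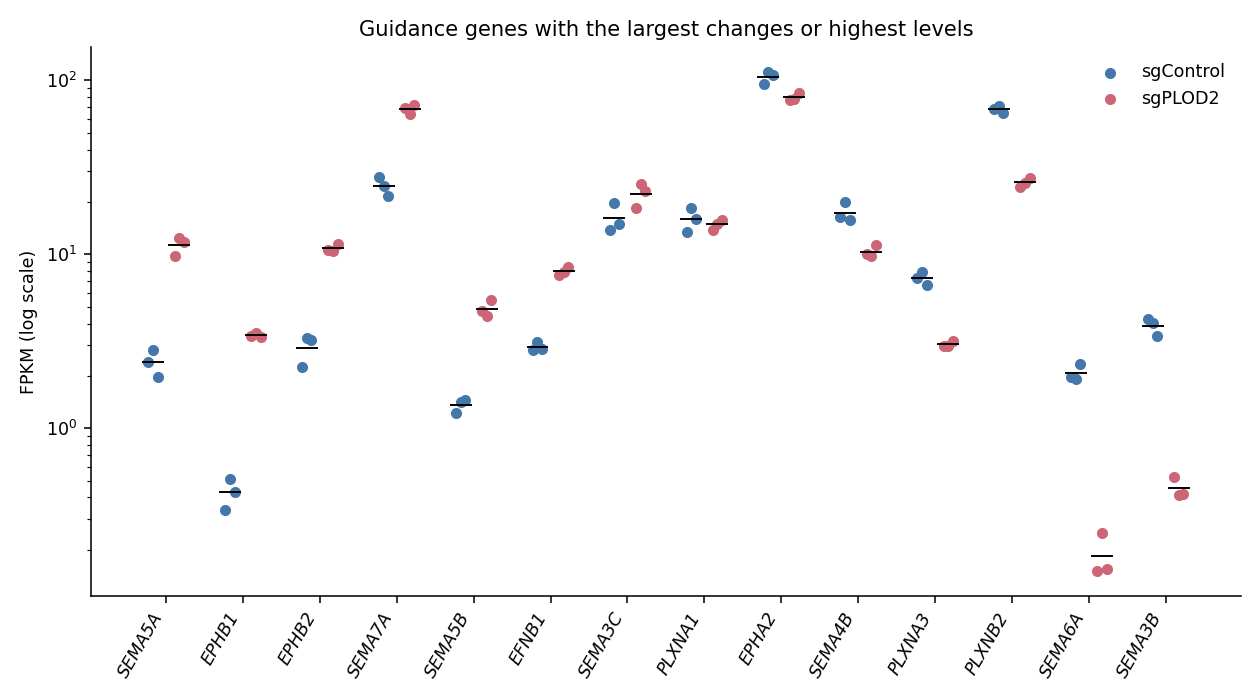
FPKM (vertical axis, log scale) in each of the 3 sgControl and 3 sgPLOD2 libraries for the 10 members called with a change of at least 1 on the log2 scale and the 4 others that average at least 10 FPKM, ordered by fold change. Points are libraries and black bars group means. The groups overlap in SEMA3C and PLXNA1. The 10 called members were chosen for their change, so the separation of their groups is not a further result.

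Among semaphorins, SEMA7A, a lipid-anchored protein that binds beta-1 integrin and plexin C1, rose most in absolute level. SEMA7A had 27.7, 24.9 and 21.8 FPKM with the control guide, and the sgPLOD2 libraries had 69.3, 64.0 and 71.8 FPKM. The mean was 2.76-fold higher and the groups did not overlap. The log2 fold change was 1.43 ± 0.11 (SE), with an adjusted p of 8.01e-05. SEMA7A ranked 3 among the members in sgControl and 2 in sgPLOD2, and its share of semaphorin FPKM was 27.5% to 32.6% and 46.8% to 51.6%. Of its receptors, the plexin C1 gene PLXNC1 stayed under 0.03 FPKM in every library. The integrin gene ITGB1 rose from 108 ± 5.01 to 161 ± 14.9 FPKM (SD, n = 3 each; 0.57 on the log2 scale, adjusted p = 0.00232).

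Both class 5 semaphorins, membrane proteins with thrombospondin repeats, rose. SEMA5A had 2.39, 2.82 and 1.97 FPKM in sgControl libraries against 9.74, 12.4 and 11.8 FPKM in sgPLOD2, 4.73-fold higher on average. Its log2 fold change of 1.86 ± 0.13 (SE; adjusted p = 6.70e-05) was the largest rise of a tested member on log2(FPKM + 1), whereas by the ratio of means EPHB1 rose more. EPHB1 also exceeded SEMA5A with pseudocounts of 0.1 (2.75 and 2.20) and 0.5 (2.08 and 2.03), under TPM (2.56 and 2.26) and after correction for GC content and length (1.52 and 1.35). SEMA5B had 1.23, 1.41 and 1.45 FPKM in the control libraries, compared with 4.70, 4.43 and 5.47 FPKM in sgPLOD2. It was 3.57-fold higher, with a log2 fold change of 1.31 ± 0.10 (SE) and an adjusted p of 9.46e-05. Neither gene overlapped between groups. PLXNB3, the plexin known to bind SEMA5A, fell, as described with the plexins.

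SEMA6A, a transmembrane ligand of A-class plexins, fell to a low level. It had 1.97, 1.92 and 2.35 FPKM with the control guide, and the sgPLOD2 libraries had 0.152, 0.249 and 0.154 FPKM, 11.2-fold lower on average. The log2 fold change was -1.38 ± 0.09 (SE; adjusted p = 4.42e-05), and with a pseudocount of 0.1 it was -2.95. An antisense transcript that overlaps SEMA6A, SEMA6A-AS2, had 0.263, 0.269 and 0.0627 FPKM in sgControl and was listed at 0 in all sgPLOD2 libraries. As the strand setting is not known, reads in that overlap cannot be assigned to either gene. Of the other class 6 genes, SEMA6B had 0.707 ± 0.097 and 0.838 ± 0.086 FPKM (SD, n = 3 each), SEMA6C stayed under 0.5 FPKM and SEMA6D under 0.2 FPKM. SEMA6A thus went from 66.9% to 13.6% of summed class 6 FPKM.

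The secreted class 3 genes moved in opposite directions. SEMA3B, a neighbour of SEMA3F on chromosome 3p that is known as a candidate tumour suppressor, had 4.26, 4.03 and 3.40 FPKM in sgControl libraries against 0.528, 0.415 and 0.419 FPKM in sgPLOD2. This made SEMA3B 8.58-fold lower, with a log2 fold change of -1.75 ± 0.10 (SE) and an adjusted p of 2.10e-05. SEMA3F, a neuropilin-2 ligand, had 6.31, 5.07 and 4.96 FPKM in the control libraries, compared with 8.93, 8.72 and 10.5 FPKM in sgPLOD2 (0.69 ± 0.12 (SE) on the log2 scale, adjusted p = 0.00269). Neither gene overlapped between groups. The genes lie at 50267558 to 50277546 (SEMA3B) and 50155045 to 50189075 (SEMA3F) on the plus strand of chromosome 3 (GRCh38). The median fold change of tested genes on chromosome 3 was 0.33, and with chromosome medians removed SEMA3B had -2.08 and SEMA3F 0.36, both still called. SEMA3C, the most abundant class 3 gene, had 13.8, 19.7 and 14.9 FPKM with the control guide, and the sgPLOD2 libraries had 18.4, 25.3 and 23.2 FPKM. The groups overlapped, and SEMA3C was not called (log2 fold change 0.45, 95% interval 0.06 to 0.83, adjusted p = 0.0539).

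Class 4 genes, membrane proteins of which several are ligands of B-class plexins, also divided. SEMA4B had 16.4, 19.9 and 15.8 FPKM in sgControl libraries against 10.0, 9.78 and 11.3 FPKM in sgPLOD2, with no overlap (-0.69 ± 0.11 (SE) on the log2 scale, adjusted p = 0.00204). SEMA4F had 1.25, 3.49 and 3.18 FPKM in the control libraries, compared with 4.48, 4.45 and 5.31 FPKM in sgPLOD2. The call of SEMA4F (0.72 ± 0.25 (SE), adjusted p = 0.0477) was lost in 11 of 17 alternatives, where adjusted p was 0.0516 to 0.137. Without sgControl replicate 1 the log2 fold change of SEMA4F was smaller, 0.41, but the gene was still called (adjusted p = 0.0153). SEMA4C, a ligand of plexin B2, had 5.81 ± 1.73 and 5.87 ± 1.24 FPKM (SD, n = 3 each), with a 95% interval of the log2 difference from -0.46 to 0.51. SEMA4D, the best known ligand of plexin B1, was at 0.399 ± 0.113 and 0.352 ± 0.043 FPKM and below the filter.

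Semaphorin FPKM summed over all 20 genes was 85.0, 90.4 and 76.2 in sgControl and 134, 137 and 149 in sgPLOD2, while plexin FPKM summed over 9 genes was 97.0, 106 and 95.7 in sgControl and 47.1, 50.2 and 53.0 in sgPLOD2. Neither sum overlapped between groups, and the sums were not tested. Single genes weighed heavily in them, as the mean of SEMA7A went from 24.8 to 68.4 FPKM and that of PLXNB2 from 68.2 to 25.9 FPKM. The plot of summed levels shows classes 5 and 7 on the higher side and B-class plexins and class 6 on the lower.

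**Figure D3:**
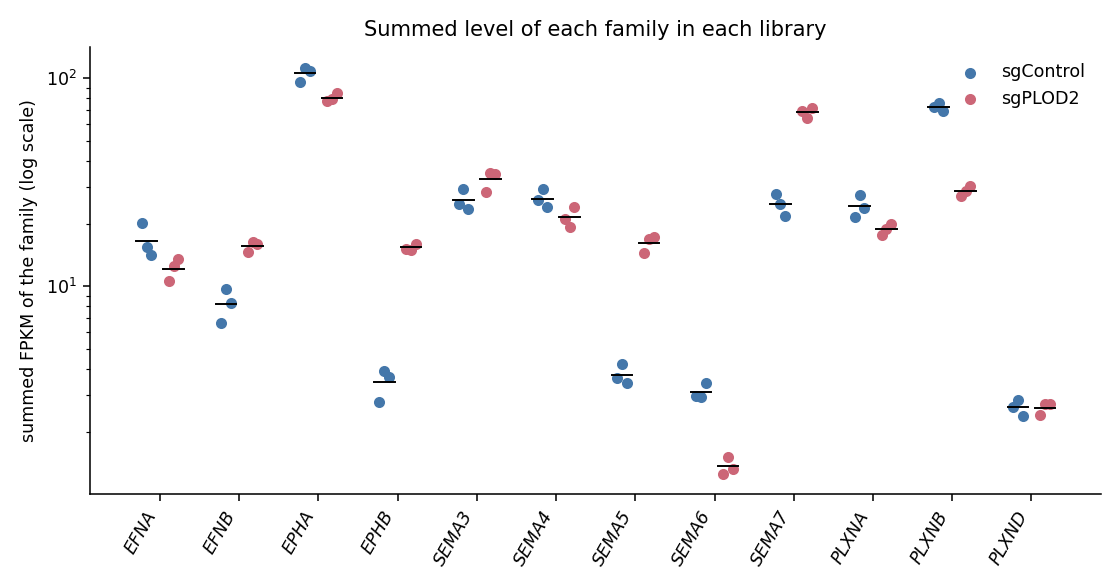
Summed FPKM of each family (vertical axis, log scale) in each of the 3 sgControl and 3 sgPLOD2 libraries. Points are libraries and black bars group means. EPHB sums are 2.78 to 3.90 FPKM in sgControl and 15 to 15.9 in sgPLOD2, and PLXNB sums 69.6 to 75.8 and 27.1 to 30.3. PLXNC1 is not drawn because it stayed under 0.03 FPKM.

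Of 6 tested plexins 3 fell and 3 were not called, where 23.5% of all tested genes fell and 52.9% were called in either direction. PLXNB2, the main plexin of these cells and a receptor for class 4 semaphorins and for angiogenin, had 68.5, 71.2 and 65.0 FPKM with the control guide, and the sgPLOD2 libraries had 24.5, 25.8 and 27.5 FPKM. It was 2.63-fold lower without overlap, with a log2 fold change of -1.36 ± 0.08 (SE) and an adjusted p of 2.91e-05. PLXNB2 held 67.1% to 70.6% of plexin FPKM in sgControl and 51.4% to 52.0% in sgPLOD2. PLXNB3, the SEMA5A receptor, had 2.29, 2.11 and 2.42 FPKM in sgControl libraries against 0.849, 0.993 and 0.815 FPKM in sgPLOD2 (-0.80 ± 0.09 (SE) on the log2 scale, adjusted p = 0.000394), a 2.57-fold lower mean. With a pseudocount of 0.1 the log2 fold change of PLXNB3 was -1.27. PLXNA3, which pairs with neuropilins as a receptor for class 3 semaphorins, had 7.30, 7.90 and 6.66 FPKM in the control libraries, compared with 2.96, 2.98 and 3.19 FPKM in sgPLOD2. Its log2 fold change was -1.03 ± 0.09 (SE), with an adjusted p of 0.000178. Neither PLXNB3 nor PLXNA3 overlapped between groups. PLXNA3 and PLXNB3 lie on chromosome X, at 154458281 to 154477779 and 153764196 to 153779346 (GRCh38, plus strand), where the median fold change of tested genes was -0.0073. On the other strand PLXNA3 overlaps LAGE3, which was also lower (24.5 against 16.3 FPKM). PLXNB3 likewise overlaps U52111.1, which was not tested (1.03 against 0.640 FPKM). Reads in these overlaps cannot be assigned to either gene.

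The other plexins did not pass the test. PLXNA1, the second most abundant plexin and a class 3 receptor, had 16.0 ± 2.52 and 14.9 ± 1.02 FPKM (SD, n = 3 each; 95% interval of the log2 difference -0.38 to 0.20). PLXNB1 had 2.19 ± 0.25 and 1.87 ± 0.14 FPKM, and PLXND1, the SEMA3E receptor, 2.62 ± 0.22 and 2.61 ± 0.17 FPKM. Their intervals were -0.37 to 0.07 and -0.22 to 0.21. All of PLXNA1, PLXNB1 and PLXND1 lie on chromosome 3, and with its median removed they were called lower (-0.42, -0.48 and -0.34; adjusted p = 0.0280, 0.00551 and 0.0198). PLXNA2 was at 0.847, 1.05 and 1.03 FPKM in sgControl and at 0.733, 0.763 and 0.766 FPKM in sgPLOD2, just under the filter. The authors' deposited table gave PLXNA2 a log2 fold change of -0.46 with an adjusted p of 0.0141.

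The remaining members were weakly expressed. Of 27 below the filter, 4 Eph receptor genes (EPHA3, EPHA7, EPHA8 and EPHA10) were listed at 0 in every library, and 18 others had group means no higher than 0.482 FPKM. The last 5 were EPHB4, PLXNA2 and SEMA6B, given above, and EFNA3 and SEMA3A. EFNA3 had 0.779 ± 0.141 and 0.764 ± 0.090 FPKM, and SEMA3A, the prototype repulsive semaphorin, 0.359 ± 0.092 and 0.551 ± 0.061 FPKM (SD, n = 3 each). The authors' deposited table held an adjusted p for 22 of the 27, of which 4 were called higher (EPHB4, PLXNA4, SEMA3D and SEMA6D) and 4 lower (EPHA1, EPHA5, EPHA6 and PLXNA2). There, 22.7% of 12412 genes under 1 FPKM on average had an adjusted p under 0.05. PLXNA4 had 0.00521 FPKM in sgControl replicate 2, was listed at 0 in the other 2 control libraries and had 0.0944, 0.113 and 0.109 FPKM in sgPLOD2. EPHA1 (0.0620 and 0.0245 FPKM) overlaps ZYX on the other strand, which was far more abundant and also called lower (157 and 115 FPKM), so reads there cannot be assigned to either gene. EPHA6 had 0.240, 0.192 and 0.187 FPKM with the control guide, and the sgPLOD2 libraries had 0.0722, 0.0563 and 0.0968 FPKM. Such levels are far below those of the tested members. Over all members the authors' deposited table called 11 higher and 12 lower of 46 with an adjusted p, against 35.5% of all its 22870 genes. It gave the same direction and a call for 15 of the 17 members called here, all except EFNB2 and SEMA4F (adjusted p = 0.102 and 0.0525 there).

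Known partners of these families were taken from a list of 80 genes. Of 59 tested, 28 were higher and 7 lower, against 29.5% and 23.5% of all tested genes. Their median fold change was 0.27, against 0.06 for all tested genes. Among 7 tested semaphorin co-receptors 5 rose and 2 were not called. NRP1, the neuropilin of SEMA3A and of VEGF, had 2.99, 3.43 and 3.13 FPKM in sgControl libraries against 9.63, 11 and 10.7 FPKM in sgPLOD2. The groups of NRP1 did not overlap (1.45 ± 0.09 (SE) on the log2 scale, adjusted p = 3.70e-05). NRP2, the main receptor of SEMA3F, had 22.9 ± 3.99 and 26.1 ± 2.16 FPKM (SD, n = 3 each) and was not called. NRP1 was thus lower than NRP2 in every library of both groups. The plexin-associated pseudokinase gene PTK7 had 0.185, 0.170 and 0.169 FPKM in the control libraries, compared with 5.16, 4.43 and 5.93 FPKM in sgPLOD2 (2.39 on the log2 scale, adjusted p = 6.81e-06), a 29.6-fold higher mean. With a pseudocount of 0.1 the log2 fold change of PTK7 was 4.25.

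Of 27 tested genes of plexin signalling, 12 rose and 3 fell, a called share near the 52.9% of all tested genes (29.5% higher and 23.5% lower). DPYSL2, which encodes the class 3 semaphorin effector CRMP2, went from 1.78 ± 0.64 to 9.12 ± 0.30 FPKM (1.89 on the log2 scale, adjusted p = 0.000213). ARHGEF12, a RhoA exchange factor that binds B-class plexins, went from 0.926 ± 0.356 to 3.64 ± 0.67 FPKM (1.28, adjusted p = 0.000972). After correction for GC content and length ARHGEF12 had 0.77 and was still called. MICAL2, an actin-oxidizing enzyme, had 2.16, 9.09 and 6.55 FPKM with the control guide, and the sgPLOD2 libraries had 20.3, 23.2 and 24.3 FPKM (1.92, adjusted p = 0.00557). In MICAL2, as in EFNB2 and SEMA4F, sgControl replicate 1 was the lowest library, and without it the log2 fold change of MICAL2 was 1.43.

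Of 25 tested genes of Eph and ephrin signalling, 11 rose and 4 fell, against 29.5% and 23.5% of all tested genes (52.9% in either direction). The filter on the mean left out GRB7 (1.32 and 0.111 FPKM), PICK1 (1.24 and 0.230 FPKM) and CHN1 (0.369 and 1.19 FPKM). These are the untested genes of the list with a group mean of at least 1 FPKM. The exchange factor gene ARHGEF16, whose product is known to bind EPHA2, fell from 5.41 ± 0.21 to 1.12 ± 0.05 FPKM (-1.60 on the log2 scale, adjusted p = 1.26e-05). RASA1, a Ras GTPase-activating protein recruited by EphB2, rose from 3.54 ± 0.66 to 8.77 ± 0.93 FPKM (1.11, adjusted p = 0.000642). PTPN13, a phosphatase with PDZ domains that can bind the tail of B-class ephrins, rose from 1.13 ± 0.30 to 3.70 ± 0.73 FPKM (1.14, adjusted p = 0.000939). After correction for GC content and length PTPN13 had 0.68 and was still called.

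The targeted gene and the identity of the cells were checked from the same table. PLOD2 had 26.8, 25.7 and 21.5 FPKM in sgControl libraries against 5.98, 10.1 and 6.64 FPKM in sgPLOD2 (-1.61 on the log2 scale, adjusted p = 0.000509). Its 2-sided exact permutation p was 0.1, the smallest that 3 libraries against 3 allow. All 10 renal carcinoma markers reached 1 FPKM, and their sums were 1293 to 1643 FPKM in sgControl and 1142 to 1208 FPKM in sgPLOD2. Most of these sums was VIM (means of 1120 and 867 FPKM, called lower), so they say little about the other markers. PAX8 was not called, but 7 of the 10 were, 3 higher and 4 lower, where 29.5% of all tested genes were called higher and 23.5% lower. Among the called markers were CA12 (31.9 and 9.65 FPKM) and LHX1 (1.68 and 6.63 FPKM). Of 8 endothelial and 8 fibroblast markers none reached 1 FPKM, and their sums were 0.0513 to 0.176 and 0.263 to 0.509 FPKM in sgControl and 0.414 to 0.508 and 0.440 to 0.719 FPKM in sgPLOD2. VWF and EMCN among the endothelial and DCN and DPT among the fibroblast markers were listed at 0 in every library. Others of these markers were apart between the groups and higher in sgPLOD2 at low levels, with means of 0.0158 and 0.158 FPKM for TIE1, 0.00807 and 0.0530 FPKM for TEK, 0.0400 and 0.220 FPKM for ROBO4 and 0.0197 and 0.179 FPKM for PDGFRB. POSTN and COL1A2 were listed at 0 in sgControl and had 0.184 and 0.0133 FPKM in sgPLOD2. These markers were named after their values were seen. Of 8 leukocyte markers only CD68 reached 1 FPKM, with 15.8 ± 3.84 and 5.86 ± 0.56 FPKM (SD, n = 3 each), and CD3E and MS4A1 were listed at 0. The leukocyte sums were 11.5 to 18.4 and 5.62 to 6.65 FPKM. The part of these marker levels in the results was not tested. Since the groups also differ in HIF1A and in chromosome medians (-0.25 on chromosome 16 to 0.54 on chromosome 14 among the numbered chromosomes), an effect of PLOD2 loss and a difference between cell populations cannot be told apart.

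**Figure D4:**
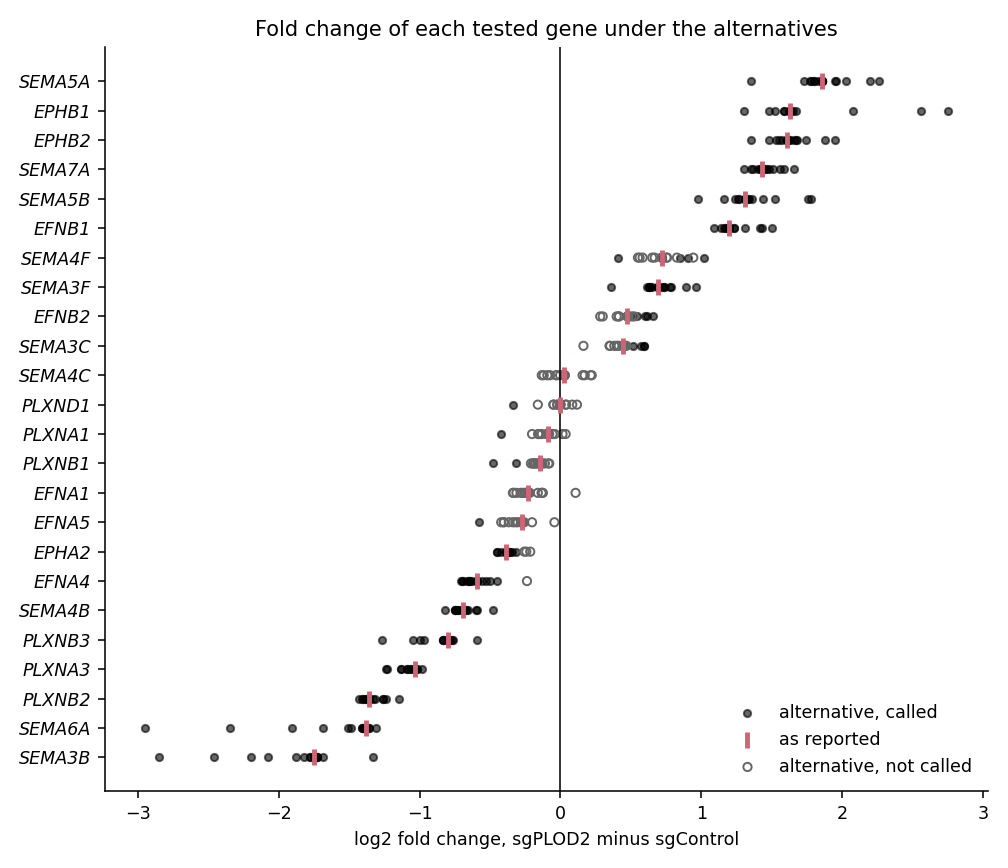
Log2 fold change (horizontal axis) of each tested member as reported (red bar) and under the alternative settings (filled points where called at an adjusted p under 0.05, open points where not). The 10 members with a reported change of at least 1 were called in the same direction under each alternative that tested them.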

How the data were processed

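RNA was sequenced from 6 libraries of 786-O cells, 3 sgControl and 3 sgPLOD2. CASAVA, HISAT2 2.1.0, StringTie 1.3.4 and the build GRCh38 are named, without their roles, in the submitters' processing notes. Neither the counting tool nor its strand setting is given in the sources used here. Per the file headers, the authors deposited 1 FPKM value per gene and library, with no recorded scaling between libraries. Per the same file headers, the authors' comparison gave a mean normalized count (a signal value), a log2 fold change, its standard error and a test statistic (score values) and p-values. Library FPKM totals were 229485 to 268612. Read depth is unknown, so no counting interval is given, and an FPKM of 0 is described as listed at 0.

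Log2(FPKM + 1) was fitted over all 10469 genes averaging at least 1 FPKM by limma (version 3.58.1, R 4.3.3; eBayes after lmFit, its prior variance following mean level), and 2-sided p-values were adjusted by Benjamini-Hochberg and called under 0.05. The steps were tested on simulated data. The exact permutation test used scipy 1.17.1. Chromosomes and strands came from GENCODE release 29, and positions from the deposited table. Values per library are printed for members called with a log2 change of at least 1 or averaging at least 10 FPKM, and for others where a result turns on them. Up to 6 partners per list that changed by at least 1, and both neuropilins, are named. ITGB1, HIF1A, GRB7, PICK1, CHN1 and the overlapping genes were added after their values were seen. The members and lists were chosen with earlier results of these data known. Promoter sequences are from RefSeq (GRCh38.p14), matched by symbol for 23 of 24 tested members, taking the start nearest the deposited gene start. There were 18 alternatives: pseudocounts of 0.1 and 0.5, leaving off the filter or raising it to 5 FPKM, scaling each library to an equal sum (TPM), by median of ratios or by quantiles, dropping the trend or fitting it robustly, a block for the replicate number, removal of chromosome medians, removal of a GC and length trend (mgcv 1.9.3), and leaving out each library.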

Additional observations from a re-analysis of the deposited data

How the results depend on the processing

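Of the 17 called members, 13 kept their direction and their call in each alternative that tested them, and EFNA4, EFNB2, EPHA2 and SEMA4F lost the call in some. No called member reversed. At a minimum of 5 FPKM, fewer genes were tested: 5 members were called lower, and 15 partner genes and 1361 genes in all were called higher. Of the netrin, Slit and related guidance genes none was tested there (0 calls). With no filter 8 of those guidance genes were called higher. Leaving out each library in turn gave 7 to 10 members called higher and 8 in each case called lower, with 2307 to 3228 and 1920 to 2572 genes in all, 23 to 29 and 5 to 7 partner genes, and 4 to 5 of those guidance genes called higher. Under TPM the median of all tested genes went from 0.06 to 0.20, higher calls from 55.7% to 66.8% of all calls (49.9% with median-of-ratios scaling or quantiles, and 45.2% at the 5 FPKM filter), and the ratio of summed levels was 0.834 for EPHA, 0.432 for PLXNB and 0.550 for all plexins. Among genes not called, signs reversed for EFNA1 (0.107) and NRP2 (-0.0939) after the GC and length correction and for PLXNA1 under TPM (0.0365) and without single libraries (-0.202 to 0.0145, above 0 without sgControl replicate 2). PLXND1 reversed under TPM (0.117), after the GC and length correction (0.0836) and without sgControl replicate 1 (0.000526), sgControl replicate 2 or sgPLOD2 replicate 1 (range over all libraries -0.0492 to 0.0402), and SEMA4C with median-of-ratios scaling (-0.0314), quantile normalization (-0.0743), chromosome medians removed (-0.133) and without single libraries (-0.119 to 0.222, below 0 in 4 of 6 cases). The cause was not tested. EFNA5 was called only after the GC and length correction (-0.58). SEMA3C was called in 5 of 18 alternatives. Same-numbered libraries deviated from their group means with correlations of 0.0135, 0.135 and -0.0491 across genes. With 3 libraries per group these values cannot settle whether the numbers pair the samples, and the labels do not say. With the replicate block, 10 members were called higher and 8 lower (SEMA3C gained a call, adjusted p = 0.0156). The deviations of sgControl replicates 1 and 3 correlated best with sgPLOD2 libraries of another number, and those of replicate 2 with the library of its own number.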

Other observations

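Of 25 genes of netrin, Slit and other repulsive guidance, 7 were tested, 5 rose and 2 (NEO1 and NTN4) were not called, while 29.5% of all tested genes rose. NTN1, the secreted attractant and repellent netrin-1, had 0.0425, 0.135 and 0.140 FPKM in the control libraries, compared with 7.89, 8.15 and 9.48 FPKM in sgPLOD2. Its groups lay far apart, with an 80.4-fold higher mean, a log2 fold change of 3.10 (5.42 with a pseudocount of 0.1) and a limma adjusted p of 2.69e-06. NTN1, like ROBO1 below, passed the filter only through its sgPLOD2 level. The netrin receptor gene UNC5B rose from 1.33 ± 0.17 to 3.01 ± 0.19 FPKM (0.78 on the log2 scale; SD, n = 3 each), and the alternative receptor gene NEO1 had 2.19 and 2.40 FPKM. NTN4, a netrin of basement membranes, had 1.75 and 1.81 FPKM. DCC, the classical netrin receptor gene, was listed at 0 in every library. The Slit receptor gene ROBO1 rose from 0.601 ± 0.105 to 2.39 ± 0.48 FPKM (1.07 on the log2 scale, adjusted p = 0.000528), a 3.97-fold higher mean, and had 1.82 on the log2 scale with a pseudocount of 0.1 and 0.70 after correction for GC content and length, whereas SLIT1, SLIT2 and SLIT3 each averaged under 0.3 FPKM in both groups.
UNC5B, NEO1, NTN4, DCC and the SLIT genes were chosen for naming after their values were seen.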
